A study of Mus musculus and Rattus norvegicus with 24 samples.

Results

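Cytosolic ribosomal protein genes were taken from the 2 deposited array tables, 1 for mouse and 1 for rat, by their gene symbol alone. A gene was a member if its symbol was Rpl or Rps with a number and at most a short suffix, or Rplp0 to Rplp2, or Rpsa, and if at least 1 transcript cluster (the array's probe set for a transcript) carried that symbol and no other. Symbols marked as pseudogenes were left out, and a gene with several clusters was represented by its brightest, by the mean of the 12 arrays of its species. This gave 67 members of 22180 mouse genes and 127 members of 18166 rat genes, 194 of 40346 in both tables, with 48 symbols in both species. The mouse members comprised 58 standard names and 9 names with an added l ("like" names, such as Rpl22l1), and the rat members 56 standard and 71 like names. Of the mouse members 25 belonged to the small and 42 to the large subunit, and of the rat members 44 and 83. A further 12 mouse and 19 rat symbols of this family, among them Rpl12, appeared only in clusters shared with other symbols and were not members. The rule used symbols alone, apart from the choice of the brightest cluster, and no filter on low values was applied.

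Ribosomal proteins are built, most of them bound to ribosomal RNA, into the small subunit, which decodes the messenger RNA, or the large subunit, which joins amino acids. Their messenger RNAs are among the most abundant of any cell and usually begin with a C and a run of pyrimidines, the terminal oligopyrimidine (TOP) tract, through which the kinase complex mTORC1 and the RNA-binding protein LARP1 control their translation. Shortage of oxygen and glucose after stroke is known to slow protein synthesis in brain tissue, largely through phosphorylation of the initiation factor eIF2 and lowered mTORC1 activity, which act on translation and are not measured by RNA arrays.

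The tissue came from adult male C57BL/6 mice aged 8 to 10 weeks and adult male Sprague-Dawley rats aged 8 to 12 weeks, under isoflurane. In permanent middle cerebral artery occlusion (pMCAO), a model of ischaemic stroke, a filament was passed into the artery, on the right in mice and on the left in rats, and was left in place. Sham animals had the same operation without occlusion. A 3 by 3 mm piece of the penumbra, the tissue around the ischaemic core, or of the like area on the operated side of a sham animal, was taken at 2 h or 6 h, giving 8 groups of 3 animals with 1 array per animal and 24 arrays in all. The labels name no transgene or deletion in either species.

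All values are the authors' deposited log2 expression values. Array medians were 6.03 to 6.06 in mouse at 2 h, 5.92 to 5.96 in mouse at 6 h, 6.67 to 6.75 in rat at 2 h and 5.82 to 5.87 in rat at 6 h, so pMCAO was set against sham within a time only. A gene "rose" or "fell" where limma, fitted over all genes of a species, gave an adjusted p under 0.05. A log2 fold change is the mean of the 3 pMCAO animals minus the mean of the 3 sham animals, given with its standard error (SE). The number of arrays limits the precision, and levels were not compared between probes. Many ribosomal protein genes have near-identical processed copies in rodent genomes, so the values of single members are uncertain where probes cannot tell copies apart.

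The sequences around the annotated start of transcription are shown for the 7 mouse genes that passed the test at 6 h. They are 30 bases from RefSeq's mouse promoters (GRCm38.p6), of which the first 10 lie before the start, and capitals mark a tract of a C followed by at least 4 bases that are C or T, on the transcribed strand, with the C within 10 bases either side of the start. Where several such C lay there, the one nearest the start was taken, and further pyrimidines may precede it in lower case.
Rpl7a (chr2:26910797-26910826, plus strand): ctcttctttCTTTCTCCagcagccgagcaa
Rps24 (chr14:24490668-24490697, plus strand): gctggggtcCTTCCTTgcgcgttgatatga
Rps27 (chr3:90213629-90213658, minus strand): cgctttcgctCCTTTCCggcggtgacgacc
Rpl19 (chr11:98026914-98026943, plus strand): tctccCCTTCgcagataatgggcggagcct
Rpl6 (chr5:121204491-121204520, plus strand): acCTCCCgtcattgcttatagaccggaagc
Rpl41 (chr10:128549149-128549178, minus strand): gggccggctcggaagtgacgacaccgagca
Rps3 (chr7:99483690-99483719, minus strand): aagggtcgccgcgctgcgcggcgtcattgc
Rps24 and Rpl19 have another annotated start that is not shown. Of the windows shown, only that of Rps27 had such a C at the annotated start base, directly preceded by other pyrimidines, and those of Rpl41 and Rps3 held no tract. Of the 67 mouse members 52 matched a RefSeq promoter, with 61 promoters in all. A C at the start base followed by at least 4 pyrimidines, whatever came before it, was found in 11 of the 61 (18%), against 469 of 21262 promoters of all protein-coding genes (2.21%) and 0 of 75 promoters of mitochondrial ribosomal protein genes. Within 10 bases of the start it was found in 33 of the 61 (54.1%), in 31.1% of all promoters and in 31 of the 75 mitochondrial ribosomal protein promoters (41.3%). A match describes the letters near an annotated start, and RefSeq's start may lie some bases from the one used in this tissue.

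At 6 h in mouse tissue the ribosomal protein genes read slightly higher after pMCAO than after sham surgery, with a small spread between genes. The log2 fold change was above 0 in 56 of 67 members, against 45.8% of all genes, and its median was 0.15 (a fold of 1.11) against -0.02 for all genes. It ranged from -0.30 to 0.37, with an SD over members of 0.14, against 0.21 over all genes. In limma 6 members rose and 1 fell, while 3.21% of all genes rose and 4.23% fell. At an unadjusted p under 0.05, 32 members were higher and 1 was lower, against 10% and 13.3% of all genes. The changes were small, and the count past the threshold moved with single arrays, as given below.

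**Figure D1:**
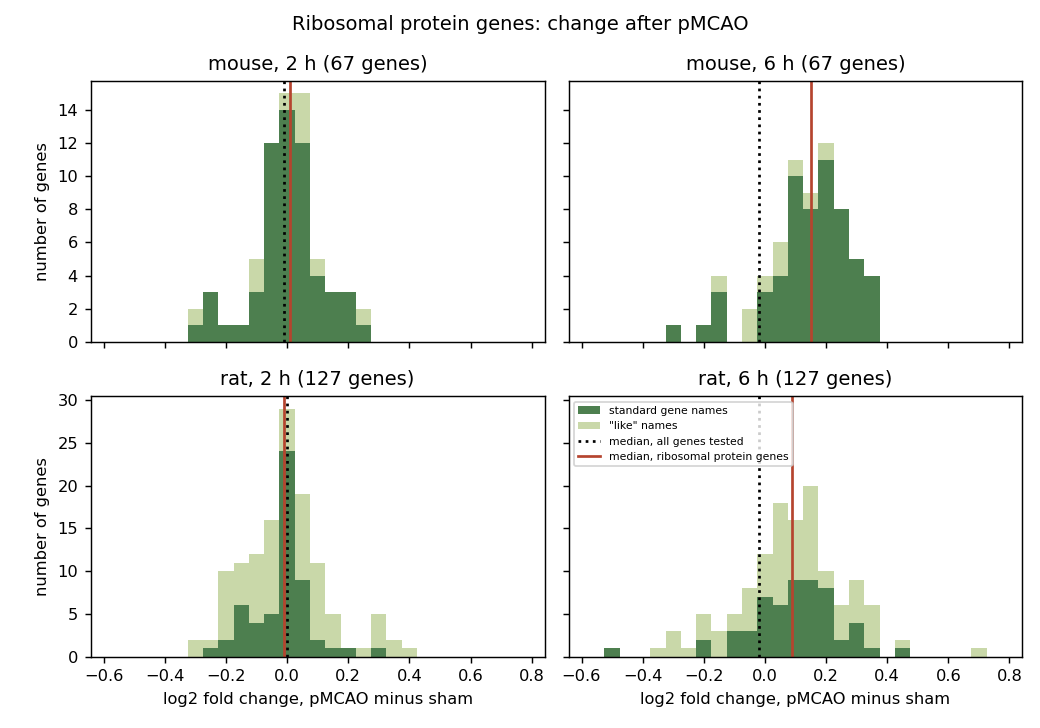
Number of ribosomal protein genes by log2 fold change, pMCAO minus sham, in bins of 0.05, for mouse and rat at 2 h and 6 h, with standard names in dark and like names in light green. At 2 h the member median (red line) was 0.01 in mouse and -0.01 in rat, and at 6 h it was 0.15 and 0.09, to the right of the median of all genes (dotted line, -0.02 in both).

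Array by array, the 3 mouse pMCAO samples at 6 h stood apart from the 3 sham samples. After subtracting each member's mean over the 6 arrays, the median member stood at 0.13, 0.05 and 0.06 in the pMCAO animals and at -0.05, -0.05 and -0.13 in the sham animals. The pMCAO animals had 80.6%, 71.6% and 74.6% of members above their own mean, and the sham animals 22.4%, 25.4% and 19.4%. The first pMCAO animal was the highest and the third sham animal the lowest. For 33 of the 67 members all 3 pMCAO animals read above all 3 sham animals, against 10.7% of all genes, and for 3 members all read below, against 14.6%.

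**Figure D2:**
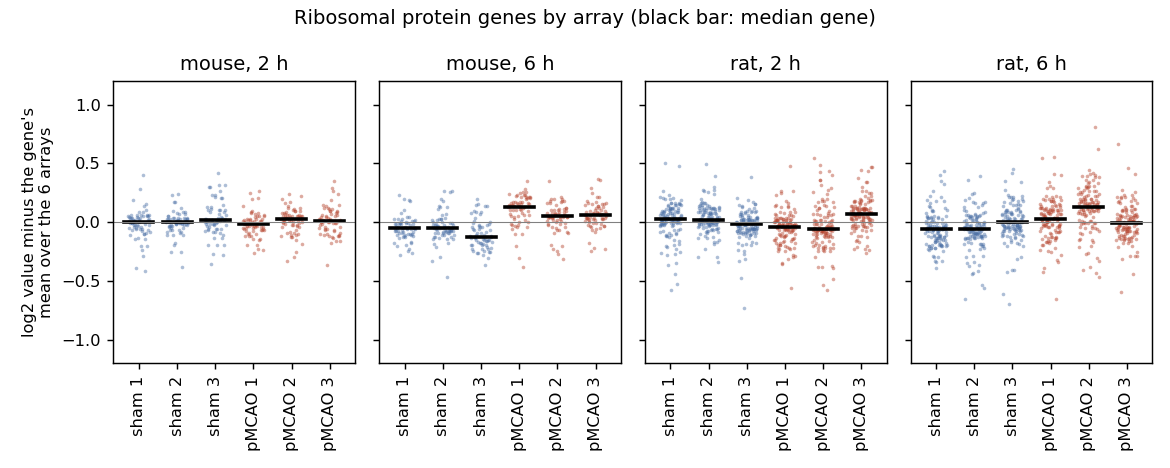
Deviation of each ribosomal protein gene (dots) from its mean over the 6 arrays of a species and time, on the log2 scale, by array, with sham in blue and pMCAO in red. The median gene (black bar) was above 0 in every pMCAO array and below 0 in every sham array in mouse at 6 h, while the bars of the groups overlap in the other 3 panels.

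The genes that rose in mouse at 6 h belonged to both subunits. Rpl41, which encodes a very short and basic protein of the large subunit, read 10.52, 10.51 and 10.47 in the pMCAO animals and 10.25, 10.26 and 10.19 in the sham animals (log2 fold change 0.27 ± 0.05 SE, adjusted p = 0.0128 in limma). Rpl7a, a large subunit protein, read 9.72, 9.69 and 9.76 against 9.48, 9.50 and 9.40 (0.26 ± 0.05, adjusted p = 0.0161 in limma). Rpl19, also of the large subunit, read 10.20, 10.08 and 10.21 against 10.02, 9.91 and 9.79 (0.26 ± 0.07, adjusted p = 0.0444 in limma). In each of these genes the groups did not overlap, and the sham animals of Rpl19 were the most spread. Rps3, a small subunit protein at the channel where the messenger RNA enters, read 9.30, 9.23 and 9.29 against 9.02, 9.01 and 8.99 (0.27 ± 0.06, adjusted p = 0.022 in limma). Rps24, mutated in some families with Diamond-Blackfan anaemia, read 8.60, 8.43 and 8.35 against 8.15, 8.23 and 8.16 (0.28 ± 0.07, adjusted p = 0.0355 in limma). Rps27, a zinc-finger protein of the small subunit, read 6.83, 6.75 and 6.64 against 6.31, 6.5 and 6.42 (0.33 ± 0.08, adjusted p = 0.0318 in limma). The lowest pMCAO animal lay above the highest sham animal in these genes too, by 0.12 in Rps24 and 0.14 in Rps27.

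Rpl6, a large subunit protein, fell at 6 h in mouse. It read 5.56, 5.80 and 5.78 in the pMCAO animals and 6.06, 6.04 and 5.95 in the sham animals, without overlap (-0.30 ± 0.07, adjusted p = 0.0315 in limma). It also read lower at 2 h, at 5.69, 5.73 and 5.72 against 5.92, 5.91 and 6.05, where it did not pass (-0.25 ± 0.07, adjusted p = 0.368 in limma). Its mean lay at or below the median of all genes, as did those of 22 members, and its like-named copy Rpl6l had a log2 fold change of 0.18 at 6 h (adjusted p = 0.114).

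**Figure D3:**
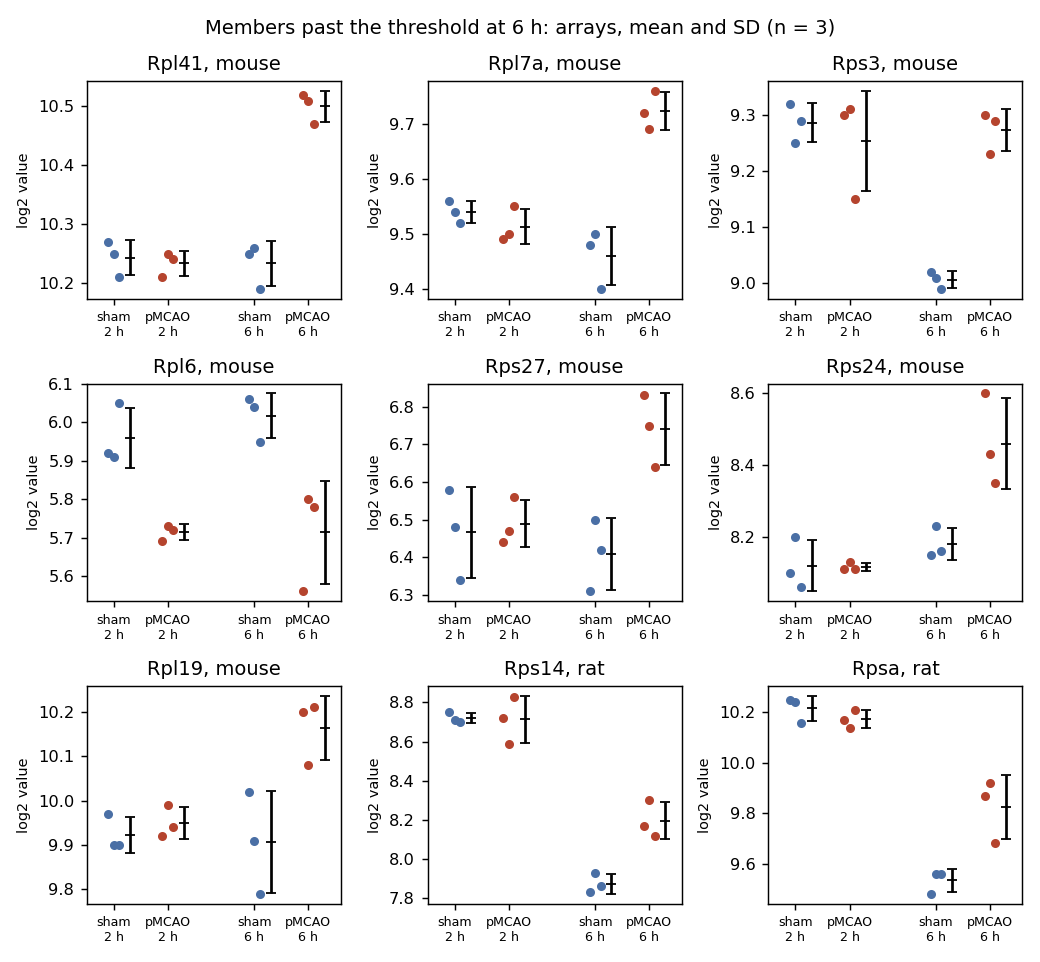
Deposited log2 value of each animal (dots) with the group mean and SD (bars, n = 3), at 2 h and 6 h, for the 7 mouse and 2 rat members past the threshold at 6 h; each panel has its own axis, and the times are not on a common scale. At 6 h pMCAO (red) and sham (blue) do not overlap in any panel, and Rpl6 is the panel with pMCAO below sham.

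These calls depended on the arrays used. Without sham animal 3 none of the 67 mouse members passed in limma (19 higher and 1 lower at an unadjusted p under 0.05), where 1.43% of all genes rose. Without pMCAO animal 1 only Rpl41 and Rpl7a passed (2.89% of all genes rose), and without sham animal 2 only Rpl41, Rpl7a and Rps27 (1.83%). Without pMCAO animal 2 the calls of Rps24 and Rps27 were lost, without pMCAO animal 3 those of Rps3 and Rpl19, and without sham animal 1 those of Rps24, Rps27 and Rpl6. A fit to the 6 arrays of 6 h alone called 0 members in limma (unadjusted p under 0.05 for 24 higher and 2 lower), where 0.681% of all genes rose. In the main fit 10% of all genes were higher and 13.3% lower at an unadjusted p under 0.05. Those shares are not given here for the other fits. The median of 0.15 ranged from 0.13 to 0.17 over the alternative runs with all 67 members. Runs that change only the error estimate cannot move this median. It was 0.18 in the run with the 45 members above the median level only.

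Many other mouse members missed the threshold by little. Rpsa, a small subunit protein also known as the laminin receptor, stood at 0.21 ± 0.06 (adjusted p = 0.0605 in limma), with 9.32, 9.16 and 9.16 in the pMCAO animals and 9.06, 9.0 and 8.94 in the sham animals. Rps14, of the small subunit, read 5.57, 5.62 and 5.66 against 5.22, 5.30 and 5.31 (0.34 ± 0.10, adjusted p = 0.0659). Both genes had separate groups. By subunit, 3 of the 23 standard small subunit genes rose and 0 fell, with 22 above 0 and a median of 0.19. The shares of all genes were 3.21% and 4.23%. Of the 35 standard large subunit genes 3 rose and 1 fell, with 29 above 0 and a median of 0.17. The 9 like names had a median of 0.03, with 5 above 0 and none past the threshold (1 at an unadjusted p under 0.05, Rpl6l). Members whose mean was above the median level of all genes had a median of 0.18, with 42 of 45 above 0, where the 11090 genes of that level had -0.03. Those at or below it had 0.10, with 14 of 22 above 0.

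Rat tissue at 6 h gave a smaller median with fewer calls. The log2 fold change was above 0 in 97 of 127 members, against 45.2% of all genes, with a median of 0.09 (a fold of 1.06) against -0.02 for all genes. In limma 2 members rose and 0 fell, while 2.85% of all genes rose and 3.62% fell, so the share of members past the threshold was below that of all genes. At an unadjusted p under 0.05, 26 members were higher and 3 lower, against 8.96% and 13.1% of all genes. The range was from -0.51 (Rps16, adjusted p = 0.152) to 0.72 (Rpl14l2, adjusted p = 0.112), and the SD over members was 0.18, against 0.25 over all genes. The clusters of Rps16 and Rpl14l2 read below the rat array medians at 6 h (5.82 to 5.87). For 25 members all 3 pMCAO animals read above all 3 sham animals, against 9.73% of all genes, and for 4 all read below, against 14.8%.

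The rat arrays overlapped where those of the mouse did not. The median member stood at 0.03, 0.13 and -0.01 in the pMCAO animals and at -0.06, -0.06 and 0.00 in the sham animals. pMCAO animal 2 had 76.4% of members above their 6-array mean, and pMCAO animals 1 and 3 had 59.1% and 47.2%. Sham animal 3, with 45.7%, lay close to pMCAO animal 3.

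Both rat members that rose belong to the small subunit. Rps14 read 8.17, 8.30 and 8.12 in the pMCAO animals and 7.83, 7.93 and 7.86 in the sham animals (0.32 ± 0.08, adjusted p = 0.0297 in limma). Rpsa read 9.87, 9.92 and 9.68 against 9.48, 9.56 and 9.56 (0.29 ± 0.07, adjusted p = 0.0397 in limma). The groups did not overlap in either gene, and in both the second pMCAO animal was the highest. Rpl5 missed the threshold, at 4.21, 4.15 and 4.53 against 3.77, 4.10 and 3.66 (0.45 ± 0.13, adjusted p = 0.0549 in limma). Its lowest pMCAO animal lay 0.05 above its highest sham animal. These Rpl5 values lay below the rat array medians at 6 h (5.82 to 5.87). The like-named copy Rpl5l1 averaged 8.63 after pMCAO and 8.49 in sham (0.14 ± 0.13, adjusted p = 0.596 in limma).

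The rat calls were lost in most fits that left out 1 array. In those fits the log2 fold change ranged from 0.27 to 0.36 for Rps14 and from 0.24 to 0.36 for Rpsa. Both genes passed in only 1 of the 6 fits that left out an animal of 6 h. That was the fit without pMCAO animal 3, in which Rpl10a passed too and 2.33% of all genes rose. Without pMCAO animal 1 no member passed (16 higher at an unadjusted p under 0.05), where 2.03% of all genes rose. The other fits called other members instead. They were Rpl14l2 and Rpl5 without pMCAO animal 2 (3.68% of all genes rose) and Rpl14l2 without sham animal 1 (1.81%). Rpl5 passed without sham animal 2 (1.76%), and Rpl27l2 and Rpl35l2 without sham animal 3 (1.94%). Centring each array on its median also left 0 (18 higher at an unadjusted p under 0.05), where 2.63% of all genes rose. The 6 arrays of 6 h alone left 0 as well (16 higher), where 1.16% rose. In the main fit 8.96% of all genes were higher at an unadjusted p under 0.05, and that share is not given here for the other fits.

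Standard and like names were close in the rat. The 56 standard names had a median of 0.12, with 46 above 0, and the 71 like names 0.08, with 51 above 0 and none past the threshold in limma (10 higher and 2 lower at an unadjusted p under 0.05). Small and large subunit genes with standard names had the same median, 0.12, with 14 of 19 and 32 of 37 above 0. Members above the median level of all genes had 0.13, with 64 of 71 above 0, where all genes of that level had -0.05, and members at or below it had 0.04, with 33 of 56 above 0.

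At 2 h the ribosomal protein genes stayed near 0 in both species. None of the 67 mouse members passed in limma, where 0.149% of all genes rose and 0.149% fell, and 3 were higher and 4 lower at an unadjusted p under 0.05 (3.84% and 3.88% of all genes). The mouse median was 0.01, the range -0.32 to 0.27, and 37 of 67 members were above 0, against 47.1% of all genes. None of the 127 rat members passed either, where 0.033% of all genes rose and 0.033% fell, and 5 were higher and 3 lower unadjusted (3.32% and 3.77% of all genes). The rat median was -0.01, the range -0.31 to 0.40, and 52 of 127 members were above 0, against 48.1% of all genes. All 3 pMCAO animals were above all 3 sham animals in 4 mouse and 3 rat members (6.24% and 5.54% of all genes) and below them in 4 and 4 (8.39% and 7.57%), so these counts were near the background. Leaving out any 1 array of 2 h also called no member in limma, with medians of -0.01 to 0.02 in mouse and -0.04 to 0.01 in rat over all alternatives.

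The members with the smallest p at 2 h were other genes in each species. In mouse, beside Rpl6, the large subunit gene Rpl30 read 5.47, 5.23 and 5.50 after pMCAO against 5.52, 5.79 and 5.86 (-0.32 ± 0.11, adjusted p = 0.466 in limma). Rpl9, also of the large subunit, read 8.03, 8.09 and 8.17 against 7.78, 8.05 and 7.79 (0.22 ± 0.08, adjusted p = 0.549). The Rpl30 groups were separate by 0.02, and the Rpl9 groups overlapped. In rat the copy Rps12l6 read 5.26, 5.47 and 5.46 against 4.93, 5.07 and 5.00 (0.40 ± 0.13, adjusted p = 0.526). Rps27 read 6.29, 6.72 and 6.39 against 6.13, 6.15 and 6.22 (0.30 ± 0.10, adjusted p = 0.535), and Rpl10l1 had 0.23 ± 0.09 (adjusted p = 0.633). All 3 rat genes had separate groups. Rat Rps27 had 0.01 ± 0.10 at 6 h, and its change over time did not pass the threshold (-0.29 ± 0.14, adjusted p = 0.514 in limma).

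The change of the pMCAO effect from 2 h to 6 h was tested as the difference of the contrasts. None of the members passed in either species, where 0.171% of mouse and 0.231% of rat genes did. At an unadjusted p under 0.05 there were 16 of 67 mouse members, against 14% of all genes, and 15 of 127 rat members, against 10.8%. Of the 16 mouse differences 15 were above 0 and 1 below, against 1453 and 1662 among all 22180 mouse genes. The difference was above 0 in 55 mouse members (median 0.15) and in 94 rat members (median 0.11), against 46.8% and 44.6% of all genes. The smallest p in mouse belonged to Rps7, at -0.23 at 2 h and 0.28 at 6 h (difference 0.51 ± 0.13, adjusted p = 0.118 in limma), then Rpl7a (0.29 ± 0.08, adjusted p = 0.138) and Rpl41 (0.28 ± 0.07, adjusted p = 0.139). In rat it belonged to Rpl5, at -0.17 and 0.45 (0.62 ± 0.18, adjusted p = 0.219), then Rpl27l4 (0.56 ± 0.18, adjusted p = 0.25) and Rpsa (0.33 ± 0.11, adjusted p = 0.262). In the main fit no single member showed a different response at 6 h and 2 h past the threshold. Some mouse members did in alternative fits, as given in the section on processing.

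The species were compared over the 48 shared symbols. At 6 h the median was 0.16 in mouse and 0.08 in rat, with 31 members above 0 in both, 4 below 0 in both, 8 above 0 in mouse alone and 5 in rat alone. Over these 48 genes the log2 fold changes of the species had a Pearson correlation of 0.23 and a Spearman correlation of 0.33, given as a description, since the genes share their arrays and are not replicates. No member differed between the species past the threshold, where 2.27% of 14204 matched genes did, and 7 differed at an unadjusted p under 0.05, against 16% of matched genes. The smallest p belonged to Rpl5, at -0.15 in mouse and 0.45 in rat (mouse minus rat -0.61 ± 0.16, adjusted p = 0.0509, from the limma fits). The rat Rpl5 cluster read below the array medians, and its brighter copy Rpl5l1 had 0.14 ± 0.13. Rps3 followed at 0.27 and -0.09 (0.35 ± 0.11, adjusted p = 0.098), and Rpl6 at -0.30 and 0.03 (-0.33 ± 0.11, adjusted p = 0.129). The genes that rose in rat had like values in mouse, with a difference of 0.02 ± 0.13 for Rps14 and -0.08 ± 0.10 for Rpsa (mouse minus rat). The mouse Rps14 cluster averaged 5.62 after pMCAO and 5.28 in sham, below the mouse array medians. The rat Rps27 cluster, compared next, averaged 4.85 and 4.83, below the rat array medians. Of the genes that rose in mouse, Rps24 stood at -0.18 in rat (difference 0.46 ± 0.17, adjusted p = 0.193) and Rps27 at 0.01 (0.32 ± 0.13, adjusted p = 0.224, both from the limma fits). Rpl41, Rpl19 and Rpl7a stood above 0 in rat, at 0.19, 0.17 and 0.08. At 2 h 0 members differed, against 0.0141% of matched genes, and 4 did at an unadjusted p under 0.05, against 3.96%. The smallest p belonged to Rpl30, Rps27 and Rpl19, each with adjusted p = 0.998 from the limma fits. The 48 genes divided at 2 h into 14 above 0 in both, 17 below 0 in both, 12 above 0 in mouse alone and 5 in rat alone.

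**Figure D4:**
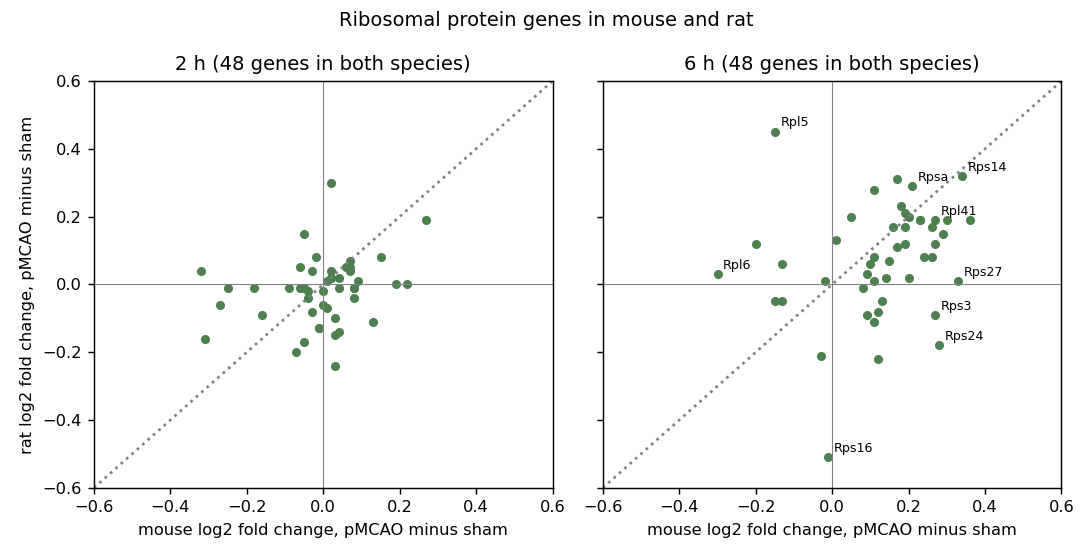
Log2 fold change (pMCAO minus sham) in rat against mouse for the 48 ribosomal protein genes measured in both species, at 2 h and 6 h, with lines at 0 and a dotted line of equal change. At 2 h the points lie around 0, and at 6 h 31 of 48 lie above 0 in both species, with Rpl5 and Rpl6 on the left (-0.15 and -0.30 in mouse) and Rps16 at the bottom (-0.51 in rat).

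Rpl5 and Rpl11 form a particle with the 5S ribosomal RNA, and outside the ribosome they bind Mdm2, the regulator of p53. In mouse at 6 h they lay on opposite sides of sham. Rpl11 read 6.36, 6.39 and 6.29 against 6.15, 6.08 and 6.09 (0.24 ± 0.08, adjusted p = 0.0774 in limma), and Rpl5 read 6.76, 6.51 and 6.78 against 6.86, 6.82 and 6.83 (-0.15 ± 0.10, adjusted p = 0.407). The groups were separate in both genes and neither passed. In rat Rpl11 had 0.08 ± 0.07 (adjusted p = 0.523), with separate groups, and Rpl5 the 0.45 given above.

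The stalk proteins, which recruit elongation factors to the large subunit, and Rps6, whose protein is the substrate of S6 kinase downstream of mTORC1, did not pass in either species. At 6 h in mouse Rplp0 had 0.20 ± 0.14 (adjusted p = 0.42 in limma), Rplp1 0.18 ± 0.07 (adjusted p = 0.146) and Rplp2 0.16 ± 0.16 (adjusted p = 0.599). Only the groups of Rplp1 were separate, with 10.41, 10.33 and 10.44 against 10.25, 10.24 and 10.16. In rat Rplp0 had 0.20 ± 0.12 and Rplp2 0.17 ± 0.09. Rps6 read 11.14, 11.12 and 11.17 against 11.03, 11.05 and 10.95 in mouse (0.13 ± 0.06, adjusted p = 0.177), and had -0.05 ± 0.14 in rat. The rat Rps6 cluster averaged 5.37 after pMCAO and 5.42 in sham, below the array medians.

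Several members serve as reference genes for PCR. Of these Rpl19 rose in mouse at 6 h, as given above, and had 0.17 ± 0.11 in rat (adjusted p = 0.377 in limma). In rat at 2 h Rpl19 read lower in every pMCAO animal, at 9.10, 8.84 and 9.12 against 9.20, 9.30 and 9.29 (-0.24 ± 0.11, adjusted p = 0.693). Rpl4 was close to sham at 6 h in both species, at 0.08 ± 0.05 in mouse and -0.01 ± 0.06 in rat, where it read 11.06, 11.08 and 11.07 against 11.03, 11.13 and 11.07. Rpl13a had 0.05 ± 0.07 in rat, and Rps18 0.13 ± 0.08 in mouse.

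Members with a named paralogue were set beside it in mouse at 6 h, where none of these pairs except Rps27 held a gene past the threshold. Rps27 rose by 0.33 ± 0.08 while Rps27l, its close paralogue, stood at 0.03 ± 0.12. Rpl7 had 0.20 ± 0.08 and Rpl7l1 -0.15 ± 0.12, and Rpl22 had 0.20 ± 0.07 and Rpl22l1 0.09 ± 0.08. Rpl3 stood at -0.02 ± 0.07 and Rpl3l, used mainly in muscle, at -0.03 ± 0.09. Rpl39 and Rpl39l both stood at 0.05, Rps4x at 0.06 and Rps4l at -0.01, and Rpl10l, used mainly in testis, at 0.15 ± 0.10. The difference between paralogues was not tested. In rat Rpl7 had 0.02 ± 0.08 and Rpl7l1 -0.05 ± 0.10, Rpl3 0.01 ± 0.08 and Rpl3l -0.21 ± 0.16, Rpl22l1 -0.09 ± 0.19, Rpl10 -0.07 ± 0.13, Rpl39 0.20 ± 0.09 and Rps4y2 0.12 ± 0.10.

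Genes with several clusters of their own allowed a check within the array. In mouse 25 members had 41 further clusters, whose median log2 difference at 6 h was 0.23 against 0.19 for the chosen clusters of these genes, and 6 of the 41 had the opposite sign. In rat 19 members had 31 further clusters, with 0.17 against 0.15 and 3 of opposite sign. Of the called genes, Rpl41 had 5 clusters, at 0.27 (the chosen one), 0.26, 0.36, 0.20 and 0.06. The second cluster of Rpl19 stood at -0.03, and those of Rps24 at -0.06 and 0.10. With the mean of all clusters in place of the brightest, Rpl19 (adjusted p = 0.265 in limma) and Rps24 (adjusted p = 0.489) no longer passed, and Rpl19 did not with median centring either (adjusted p = 0.0672), nor with array weights (adjusted p = 0.0639).

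Other genes of the translation machinery were counted from lists given in the processing section. The mitochondrial ribosomal protein genes, which serve the ribosome of that organelle, had the median of all genes in mouse at 6 h and a lower one in rat. Over all mouse genes 3.21% rose, 45.8% were above 0 and the median was -0.02. Over all rat genes 2.85% rose, 3.62% fell, 45.2% were above 0 and the median was -0.02. At 2 h the mitochondrial median in mouse was -0.04, with 17 of 71 above 0. The counts that follow are of 6 h. Of 71 in mouse 1 rose (Mrps26, 0.33, adjusted p = 0.0388 in limma), 33 were above 0 and the median was -0.02, and of 75 in rat none passed (3 higher and 9 lower at an unadjusted p under 0.05), 18 were above 0 and the median was -0.06. The difference between these genes and the cytosolic ones was not tested. Translation factors and partners whose messenger RNAs are of TOP type had a median of 0.10 in mouse, with 12 of 16 above 0. There Tpt1, which encodes the translationally controlled tumour protein, rose (8.64, 8.62 and 8.69 against 8.42, 8.47 and 8.42, 0.21 ± 0.05, adjusted p = 0.0375). In rat their median was 0.07, with 12 of 15 above 0 and none past the threshold (4 higher at an unadjusted p under 0.05).

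Ribosome assembly and the snoRNA host genes, which carry the small RNAs that guide modification of ribosomal RNA, held several mouse genes that rose at 6 h. Over all mouse genes 3.21% rose, 45.8% were above 0 and the median was -0.02. Of 39 assembly genes 3 rose, Nop58 (0.56 ± 0.08, adjusted p = 0.00343 in limma), Gnl3 (0.35 ± 0.07, adjusted p = 0.0128) and Nop56 (0.21 ± 0.06, adjusted p = 0.0499), with 30 above 0 and a median of 0.09. Nop56 and Nop58 encode core proteins of the box C/D snoRNA particle, and Gnl3 encodes nucleostemin. Of 6 snoRNA hosts 3 rose, Snhg1 (0.63 ± 0.09, adjusted p = 0.00406), Snhg5 (0.55 ± 0.10, adjusted p = 0.0101) and Snhg15 (0.28 ± 0.07, adjusted p = 0.0297), and all 6 were above 0. In rat, where 2.85% of all genes rose and 3.62% fell, none of 37 assembly genes passed (1 higher and 2 lower unadjusted) and the median was -0.01. The only snoRNA host measured there was Gas5, at 0.17.

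Genes that control translation included the clearest changes of these lists in rat. Ppp1r15a, which encodes the phosphatase subunit that reverses eIF2 phosphorylation, rose in rat at 6 h from 6.22, 6.40 and 6.33 to 7.94, 7.47 and 7.57 (1.34 ± 0.13, adjusted p = 0.000188 in limma). Atf4, the transcription factor of the integrated stress response, rose by 0.66 ± 0.09 (adjusted p = 0.00204). In mouse 4 of 18 rose at 6 h, where 3.21% of all genes did. They were Sesn2 (0.68 ± 0.15), Ddit4 (0.57 ± 0.09), Atf4 (0.42 ± 0.10) and Ppp1r15a (0.31 ± 0.08). At 2 h Ppp1r15a alone rose (0.49 ± 0.08, adjusted p = 0.0404 in limma), where 0.149% of all genes did. Sesn2 and Ddit4 encode inhibitors of mTORC1.

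**Figure D5:**
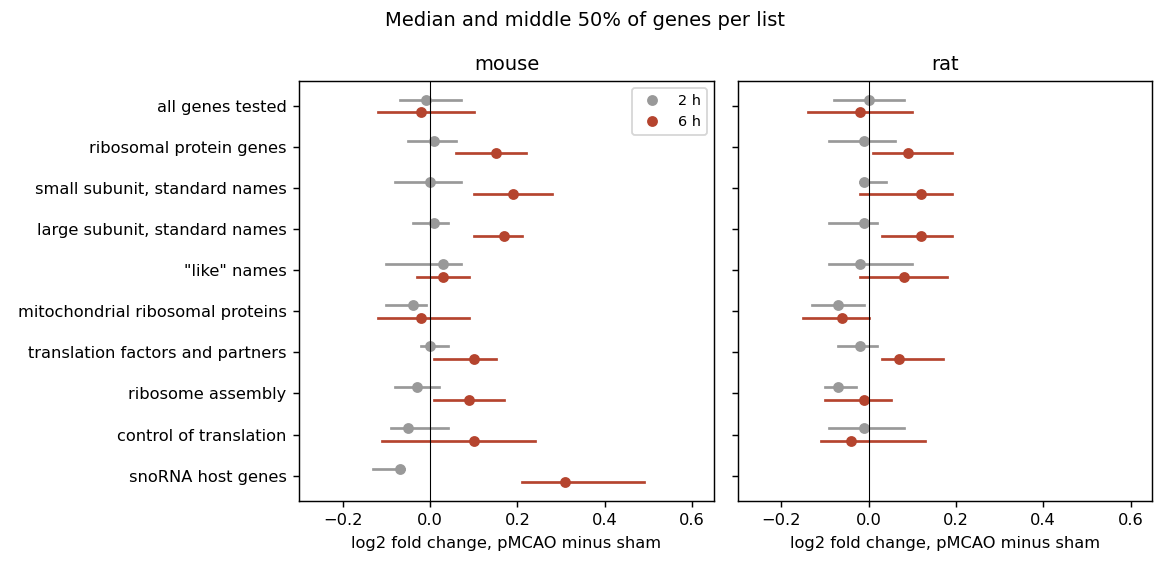
Median (dot) and middle 50% (line) of the log2 fold changes, pMCAO minus sham, of each gene list at 2 h (grey) and 6 h (red), in mouse and rat; snoRNA hosts are shown for mouse only. The ribosomal protein genes lie at 0.15 in mouse and 0.09 in rat at 6 h, the mitochondrial ribosomal proteins at -0.02 and -0.06, and all genes at -0.02 in both.

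Cell type markers of some lists also differed between the groups at 6 h, and fewer cells of a type and less RNA per cell cannot be told apart in such samples. Of all genes 3.21% rose and 4.23% fell in mouse at 6 h, and 2.85% and 3.62% in rat. The neuronal markers averaged 10.19 to 10.25 in the mouse pMCAO animals and 10.27 to 10.31 in sham, and 10.85 to 10.88 and 10.88 to 10.95 in rat. None of the 8 mouse neuronal markers passed in limma, 2 were lower at an unadjusted p under 0.05, and 3 were above 0. Their median log2 fold change was -0.03, as for all mouse genes above the median level. The 6 mouse striatal markers averaged 7.53, 7.33 and 7.37 after pMCAO and 8.53, 7.61 and 8.79 in sham, and 2 of 6 fell (Drd2 and Tac1). Sham animal 3, without which no member passed, was the highest of these. Sham animal 1 was the next, and without it 5 members rose (2.18% of all genes). Without sham animal 2, the lowest sham animal, 3 rose (1.83%). A link between these markers and the calls was not tested. The 8 rat striatal markers averaged 6.86 to 6.90 after pMCAO and 6.71 to 6.78 in sham, with none past the threshold in limma and 2 higher at an unadjusted p under 0.05. The 6 mouse oligodendrocyte markers averaged 9.47 to 9.51 after pMCAO and 9.18 to 9.43 in sham. None of them passed the threshold in limma, and 4 were higher at an unadjusted p under 0.05. The rat oligodendrocyte markers averaged 9.94 to 10.14 after pMCAO and 9.99 to 10.08 in sham, which overlap. Of 6 microglial markers 2 fell in mouse (P2ry12 and Csf1r), with averages of 7.14 to 7.28 after pMCAO and 7.37 to 7.45 in sham, and the other 4 did not pass. In rat 2 of 6 fell (P2ry12 and Tmem119), with averages of 7.18 to 7.41 and 7.50 to 7.56, and C1qa stood above sham at 0.27 ± 0.09 (adjusted p = 0.0786 in limma). The rat neutrophil markers averaged 5.33 to 5.50 after pMCAO and 4.92 to 5.06 in sham, and 2 of 10 rose (S100a9 and Mmp8), and of 4 rat endothelial markers 1 fell (Slco1c1). Choroid plexus markers ranged from 6.06 to 7.83 in the mouse pMCAO animals and from 5.88 to 6.72 in sham. The tables give no detection calls, so no marker could be called absent, and the part of these differences in the ribosomal protein values was not tested.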

How the data were processed

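RNA was isolated with the RNeasy kit, had an integrity number above 7.5 and was labelled with the WT PLUS kit, per the labels' protocols, 1 animal per array. The authors deposited log2 expression values per species, to 2 decimals, made with oligo and limma per the submitters' processing notes, without versions. How background and array differences were corrected, and on which genome build, is not given in the sources used here. Groups came from the sample titles; the label field for time was not used, since it holds 2 h throughout.

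Genes were named from the platform annotation, which gives 23521 of 41345 mouse and 18511 of 36685 rat clusters 1 symbol. With limma 3.58.1 (R 4.3.3) a mean per group was fitted over a species' 12 arrays (8 residual degrees of freedom, default eBayes). All tests are two-sided, p-values were adjusted over all genes by Benjamini-Hochberg, and the threshold was 0.05. With 3 animals a side, exact permutation allows no p under 0.1. Species effects were compared by the difference of the limma log2 fold changes with Welch-Satterthwaite degrees of freedom, adjusted over 14204 matched symbols. The fits were also run on simulated data, with independent noise per gene and changes larger than those of the called members. That run cannot vouch for calls of the size seen here.

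The members and lists were chosen with earlier results of these data known. The rule for naming members took up to 5 rises and 5 falls past the threshold per comparison, by size, the 3 with the smallest p where fewer than 3 passed or for differences of contrasts, and a fixed set (Rpl5, Rpl11, the stalk genes, Rps6, Rpsa, PCR reference genes, paralogue pairs). Members near the threshold and at the ends of a range were named after their values were seen. The lists held TOP-type translation factors and partners, ribosome assembly and ribosomal RNA synthesis, control of translation (mTORC1, eIF2 kinases, Atf4 and others), snoRNA hosts and mitochondrial ribosomal proteins (symbols Mrpl or Mrps with a number), and markers of neurons, striatal neurons, astrocytes, oligodendrocytes and their precursors, microglia, endothelium, neutrophils, choroid plexus and red cells. Lists are described by counts and medians only. Alternatives were quantile normalization, median centring, trend and robust eBayes, array weights, the 6 arrays of a time alone, the mean of a gene's clusters, genes above the median level only, a replicate block, and leaving out each array.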

Additional observations from a re-analysis of the deposited data

How the results depend on the processing

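The medians at 6 h kept their direction in every alternative run. They were 0.13 to 0.17 in mouse with all 67 members, 0.18 with the 45 mouse members above the median level only, and 0.07 to 0.13 in rat. Trend and robust eBayes, the 6 arrays alone and the replicate block change only the error estimate. Those runs could not move a median, nor could leaving out an array of the other time. The counts of 0 at 2 h, of 0 falls in rat and of 0 changes over time in rat held too. The counts of calls at 6 h did not. The share of all genes called in the same direction moved too and is given beside each count. In mouse the 6 rises (3.21% of all genes) became 10 with quantile normalization (3.42%), 17 with trend and robust eBayes (4.67%), 18 of 45 with genes above the median level only (8.25%) and 0 with the 6 arrays alone (0.681%), and 0 to 5 when 1 array was left out (1.43% to 2.89%). The single fall (4.23%) became 0 with the 6 arrays alone (0.428%) and with genes above the median level only (14.1%, where Rpl6 was not tested), and 0 to 1 when 1 array was left out (1.34% to 3.28%). In rat the 2 rises (2.85%) became 0 with median centring (2.63%) and with the 6 arrays alone (1.16%), 4 with genes above the median level only (6.22%), and 0 to 3 when 1 array was left out (1.76% to 3.68%). The mouse change over time (0.171%) went from 0 to 3 members with trend and robust eBayes (1.58%) and to 3 with genes above the median level only (3.78%). The species difference at 6 h (2.27%) went from 0 to 1 with trend and robust eBayes (3.74%), to 1 with the mean of clusters (2.36%), and 0 to 1 when 1 array was left out. Of 1268 recomputed values of named members 1135 kept side and direction, 56 lost and 8 gained the threshold, and 69, none past the threshold in either setting, changed sign. In the settings that change only the error estimate the direction could not change. Unless the setting itself tested fewer genes or arrays, the cause was not tested.

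With replicate numbers as a replicate block, 0 mouse members rose (1.57% of all genes), 0 fell (1.42%), and 1 rat member rose (Rps14, 2.42%). The labels do not say whether these numbers pair the animals. Deviations from group means correlated between animals of the same number at 0.05, -0.01 and 0.01 in mouse and 0.03, 0.02 and 0.07 in rat at 6 h. At 2 h these values were -0.01, -0.12 and -0.01 in mouse and 0.03, 0.33 and -0.02 in rat. Between rat animals of unlike number at 2 h they ran from -0.21 to 0.20. With 3 animals a group such correlations cannot decide whether animals were paired.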

Other observations

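Clusters that carry a ribosomal protein symbol together with other symbols were outside the members. Of 57 such mouse clusters 51 read higher after pMCAO at 6 h, with a median log2 difference of 0.20 and a range from -0.15 to 0.75, and 32 did at 2 h, with a median of 0.02. Of 32 rat clusters 24 read higher at 6 h, with a median of 0.07 and a range from -0.46 to 0.58, and 11 at 2 h, with a median of -0.01. A further 24 rat genes with Rpl or Rps names that the rule did not take had a median of 0.14 at 6 h, with 17 above 0 and none past the threshold in limma (1 higher at an unadjusted p under 0.05), and a median of -0.03 at 2 h.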
